A study of Mus musculus with 31 samples.

Results

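Thyroid hormone activation, its receptors and a classical target gene were followed through 4 genes in 3 fat depots of cold-exposed mice. Dio2 encodes the type II deiodinase, which makes active hormone inside the cell. Thra and Thrb encode the nuclear receptors, and Thrsp, also known as thyroid hormone responsive, is a target gene linked to fat synthesis. Each gene was found by its RefSeq accession in the count tables, and where a symbol had several rows the row with the highest total count was taken. This gave 4 members out of 16653 symbols on 17334 rows.

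The libraries came from male C57BL/6J mice aged 8 weeks, all of which first spent 8 days at thermoneutrality. Cold groups were moved to 4 °C for 2 or 4 days, and the day 0 group was killed straight after acclimation. Interscapular brown fat (iBAT) had 3, 4 and 3 libraries at days 0, 2 and 4, inguinal white fat (iWAT) had 4, 3 and 5, and epididymal white fat (eWAT) had 3, 3 and 3. Each library carries its depot and the number in its label, such as iBAT516. The labels do not say that replicate libraries came from separate mice, so p-values measure the spread between these libraries, which may be partly technical. No group analysed here stayed at thermoneutrality beside the cold groups, so time in the cold and time since day 0 cannot be told apart.

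The thyroid gland releases mainly the prohormone thyroxine (T4), and deiodinase removes 1 iodine from it to give triiodothyronine (T3), the form that binds the receptors. The receptors sit on DNA, usually paired with a retinoid X receptor, hold corepressors with histone deacetylase 3 when no hormone is bound, and exchange them for coactivators when T3 binds. In brown fat, noradrenaline raises Dio2 through cyclic AMP, and T3 made inside the cell is needed together with the sympathetic signal for full expression of Ucp1, the uncoupling protein that turns fuel into heat.

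The 250 bases before the annotated start of Dio2 are shown because Dio2 is the member with a change in the cold that passed a test. They are from RefSeq (GRCm38.p6, the assembly that mm10 represents), on the minus strand, at chr12:90739039-90739288. GENCODE M21 starts the matching Dio2 transcript further into the gene, at 90738438, so the 2 annotations differ on the start. Capitals mark TGACGTCA, the palindrome known as the cyclic AMP response element, and TATAAA, the TATA box.
Dio2: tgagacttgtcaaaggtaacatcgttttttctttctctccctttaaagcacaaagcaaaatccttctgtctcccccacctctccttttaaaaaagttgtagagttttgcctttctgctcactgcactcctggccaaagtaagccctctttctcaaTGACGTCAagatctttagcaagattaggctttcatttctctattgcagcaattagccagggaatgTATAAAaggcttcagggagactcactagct

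Positions count backwards from -1, the base before the RefSeq start. TGACGTCA, searched on both strands, began at -95 in Dio2 and was found in 1.55% of the 32851 promoters of the RefSeq table. The shorter TGACG, which overlaps it, is in 17.8% of promoters and gave no further place in Dio2 than both ends of that palindrome. TATAAA, searched on the sense strand, began at -30 in Dio2 and is in 7.59% of promoters. AGGTCA, the hexamer that nuclear receptors bind, was searched on both strands and is in 14.0% of promoters, and its letters are not in the stretch shown. These matches describe letters only, and no binding was measured.

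Total counts per library ran from 1.5 to 5.53 M (median 3.42), and levels are given as CPM, counts scaled to a fixed total, on library sizes adjusted by TMM. The brown adipocyte markers summed to between 8704 and 45000 CPM in the iBAT libraries (5 of 6 with a row, none at 0 in a group), to between 84.83 and 10550 CPM in iWAT and to between 4.79 and 352.6 CPM in eWAT, and Zic1, a marker of classical brown fat, was at 0 in every iWAT and eWAT group. White adipocyte markers (5 of 6 with a row) summed to at most 41.44 CPM in iBAT, against 97.5 to 433.3 CPM across iWAT and eWAT. iBAT539 and iBAT548 had 159 and 57 features with a count of 1, against 863 or more in every other library, so a missing value there is not shown to be a true 0. Each of these is bulk tissue, in which fewer cells of a type and less RNA per cell cannot be told apart.

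Dio2 (NM_010050) lies on chromosome 12 at 90724552 to 90739038 on the minus strand and has 2 exons and a counted transcript of 5815 bases. Exons of Gm26512, a noncoding gene on the opposite strand, share 100 of these bases, and without knowledge of strand use reads there cannot be told apart. In iBAT at day 0 it had 16.7, 72.9 and 32.6 CPM (iBAT516, iBAT517 and iBAT518). At day 2 it had 464.8, 572.3, 323.3 and 328.1 CPM in iBAT532, iBAT534, iBAT535 and iBAT539. At day 4 it had 133.1, 170.7 and 330.9 CPM (iBAT548, iBAT550 and iBAT555). All 4 day 2 libraries and all 3 day 4 libraries lay above every day 0 library, and the lowest day 2 library lay above all but 1 of the day 4 libraries. The means were 40.7 ± 29.0 CPM at day 0 (SD, n = 3), 422.1 ± 119.7 CPM at day 2 (n = 4) and 211.6 ± 105.0 CPM at day 4 (n = 3).

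Dio2 rose in iBAT after 2 days by a log2 change of 3.44 (SE 0.49, 95% interval 2.38 to 4.5), a fitted 10.8-fold, with an adjusted p of 0.0389 from edgeR's quasi-likelihood test. It ranked 6 by p and 13 by size of rise among 8270 genes tested, of which 13 passed the threshold of 0.05 (0.157%; 11 higher and 2 lower). The call is narrow: leaving out any 1 of the 7 libraries gave 3.07 to 4.17 with an adjusted p of 0.0672 to 0.274, and scaling by library size alone gave 3.18 with an adjusted p of 0.0708. With all 31 libraries in 1 fit it was 3.37 (adjusted p = 0.0762). With 1 library left out, 0 to 3 genes were called in that comparison in place of 13. After 4 days the log2 change was 2.44 (SE 0.52, 95% interval 1.31 to 3.58, adjusted p = 0.248), and edgeR called 0 of 8270 genes in that comparison (0.0%; 581 at an unadjusted p under 0.05; 83 called by DESeq2, 0 by limma voom). DESeq2 called Dio2 there, with 2.45 and an adjusted p of 0.00254.

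**Figure D1:**
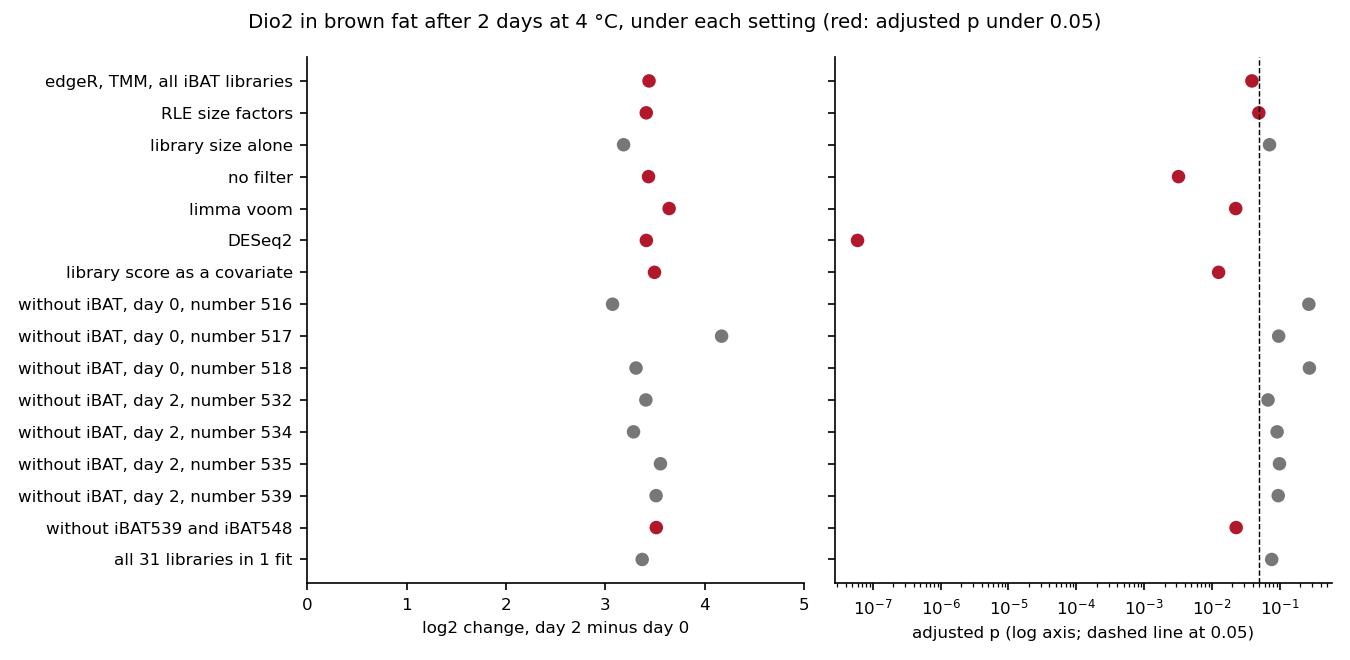
Change of Dio2 in iBAT after 2 days at 4 °C under each setting: log2 change on the left, adjusted p on a log axis on the right with a dashed line at 0.05; red points are under 0.05 and grey points are not. The log2 change stays between 3.07 and 4.17, while the adjusted p falls on both sides of the line.

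The skeletal muscle markers (12 of 12 with a row) moved the other way between these groups: they summed to 17900 to 53430 CPM at day 0, 8230 to 14380 CPM at day 2 and 4872 to 23160 CPM at day 4, so that day 2 did not overlap day 0. The brown adipocyte markers summed to 8704 to 10900 CPM at day 0, 20200 to 45000 CPM at day 2 and 32790 to 35230 CPM at day 4. Within these sums Ucp1 alone ran from 5120 to 9521 CPM at day 0, 7116 to 41150 CPM at day 2 and 17110 to 31780 CPM at day 4. The part of either marker list in the change of Dio2 was not tested. Without iBAT539 and iBAT548 the day 2 change of Dio2 was 3.51 (adjusted p = 0.0228).

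In iWAT, Dio2 had 1.4, 13.1, 1.19 and 1.77 CPM at day 0 (iWAT516, iWAT517, iWAT518 and iWAT522). At day 2 it had 82.3, 67.1 and 27.2 CPM (iWAT532, iWAT538 and iWAT539), and at day 4 it had 13.8, 49.7, 16.1, 24.9 and 4.0 CPM (iWAT548, iWAT550, iWAT551, iWAT553 and iWAT555). All 3 day 2 libraries lay above all 4 day 0 libraries, while 4 of the 5 day 4 libraries did and iWAT555 lay below iWAT517. The means were 4.37 ± 5.84 CPM at day 0 (SD, n = 4), 58.9 ± 28.5 CPM at day 2 (n = 3) and 21.7 ± 17.3 CPM at day 4 (n = 5).

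Sums of cell type markers also moved between these groups. The brown adipocyte markers (5 of 6 with a row, Zic1 at 0) summed to 84.83 to 1389 CPM at day 0, 3728 to 9104 CPM at day 2 and 742.5 to 10550 CPM at day 4. Most of the day 2 sums was Ucp1 alone, at 8530 of 9104 CPM in iWAT532, 6202 of 7883 CPM in iWAT538 and 3440 of 3728 CPM in iWAT539. The fibroblast and preadipocyte markers (5 of 6 with a row, Dcn at 0) summed to 941 to 1535 CPM at day 0, 439.6 to 513.2 CPM at day 2 and 415.3 to 1002 CPM at day 4. The nerve and Schwann markers (5 of 5 with a row) summed to 175.8 to 596.4 CPM at day 0, 86.08 to 165.1 CPM at day 2 and 97.1 to 510.2 CPM at day 4. Day 2 did not overlap day 0 in any of these lists. The library iWAT555 had epididymis and testis markers at 4440 CPM, against 1.11 to 129.1 CPM in the other day 4 libraries. The part of these in the values of Dio2 and Thrsp in iWAT was not tested.

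The log2 change of Dio2 in iWAT was 3.65 after 2 days (SE 0.85, 95% interval 1.83 to 5.47, adjusted p = 0.252) and 2.24 after 4 days (SE 0.77, 95% interval 0.60 to 3.88, adjusted p = 0.504). Neither passed the threshold, and edgeR called 0 of 9574 genes at either time (0.0%), with 1020 and 793 genes at an unadjusted p under 0.05 at days 2 and 4. DESeq2 called 111 genes at day 2, Dio2 among them (3.70, adjusted p = 0.00469), and 43 at day 4, and limma voom called 0 at both. The library iWAT517 held the highest Dio2 of its day 0 group and the highest Ucp1 (497.1 CPM). It also held the highest summed skeletal muscle markers (2607 CPM) and brown adipocyte markers (1389 CPM, against 1306 CPM in iWAT516) of that group. Without it the Dio2 changes were 5.22 at day 2 (adjusted p = 0.219) and 3.80 at day 4 (adjusted p = 0.499).

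In eWAT, Dio2 was close to the detection limit. Each day 0 library held 2 counts (0.399, 0.426 and 0.488 CPM in eWAT516, eWAT517 and eWAT518). The day 2 libraries held 8, 37 and 14 counts (2.01, 10.9 and 3.29 CPM in eWAT532, eWAT538 and eWAT539), and the day 4 libraries held 8, 1 and 5 (1.83, 0.242 and 1.23 CPM in eWAT548, eWAT551 and eWAT553). The 3 day 2 libraries lay above all 3 day 0 libraries, and the day 4 libraries fell on both sides of them. Dio2 did not reach the filter on low counts in the eWAT fit. In 1 fit of all 31 libraries its eWAT change was 3.51 at day 2 (SE 1.08, 95% interval 1.29 to 5.73, adjusted p = 1.0) and 1.27 at day 4 (SE 1.16, 95% interval -1.11 to 3.66, adjusted p = 1.0). In eWAT, edgeR called 0 of 10043 genes at either time (0.0%; 106 at day 2 and 277 at day 4 at an unadjusted p under 0.05; DESeq2 called 0 and 4, limma voom 0 and 0).

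**Figure D2:**
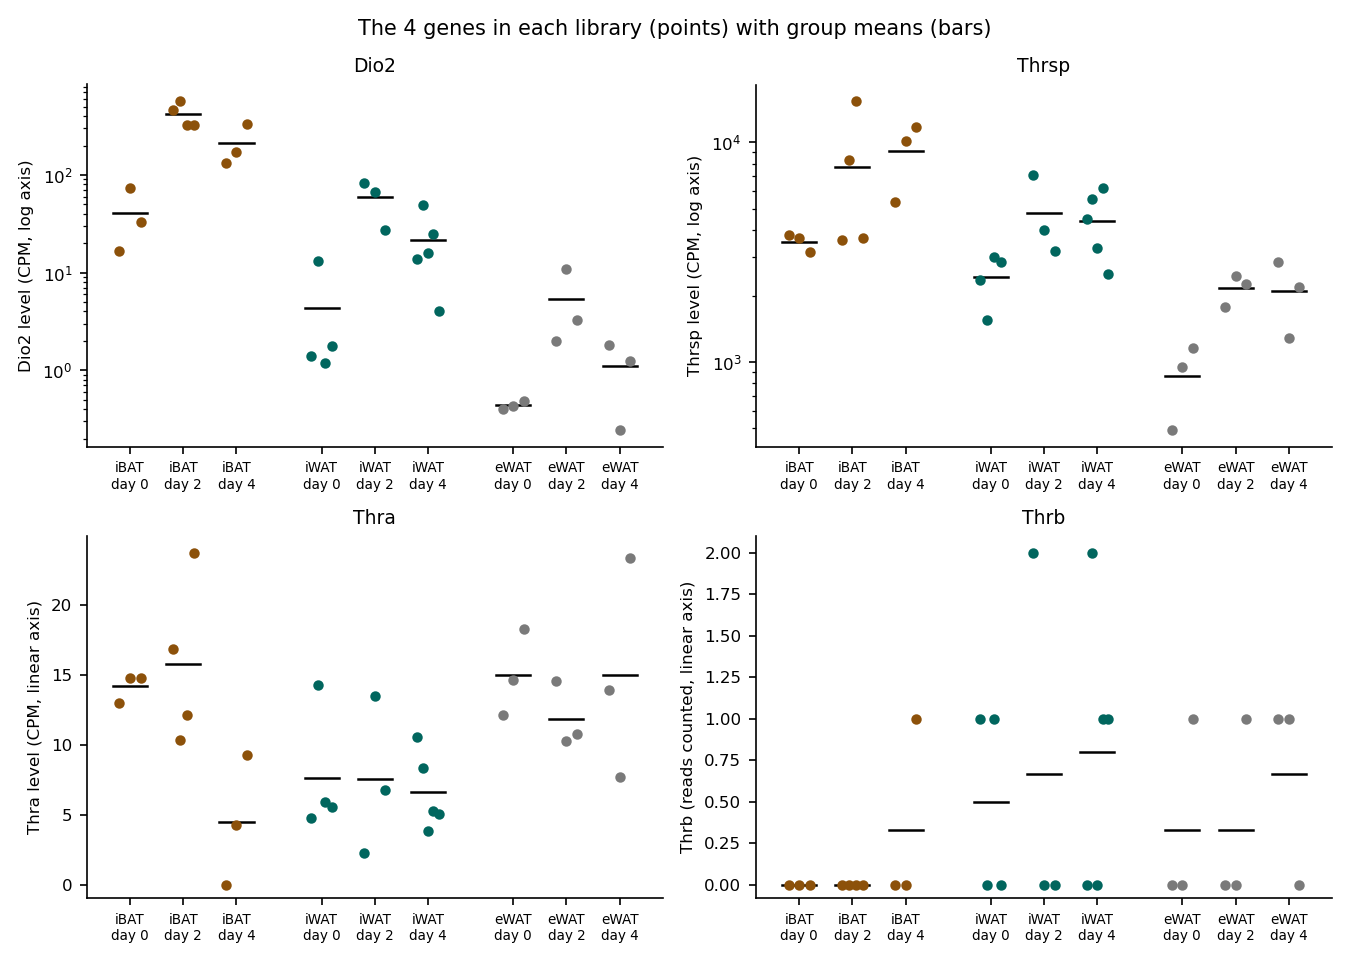
Level of each of the 4 genes in every library: CPM on a log axis for Dio2 and Thrsp, CPM on a linear axis for Thra and counted reads for Thrb. Points are libraries and bars are group means. Dio2 in iBAT at day 2 lies between 323.3 and 572.3 CPM, above every other group's range except part of iBAT at day 4, and Thrb never exceeds 2 reads.

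In the fit of all 31 libraries the day 2 changes of Dio2 were 3.37, 3.67 and 3.51 in iBAT, iWAT and eWAT, although its levels differed widely. The differences between depots in the day 2 change were -0.30 (iBAT minus iWAT, SE 1.05, 95% interval -2.46 to 1.85), -0.14 (iBAT minus eWAT, SE 1.30, -2.81 to 2.54) and 0.17 (iWAT minus eWAT, SE 1.32, -2.55 to 2.88), with adjusted p of 0.944 or more. These intervals still allow differences of several fold in either direction, and single libraries moved the values. Without iWAT517, iBAT minus iWAT was -1.91 and iWAT minus eWAT 1.77. Without eWAT538, iBAT minus eWAT was 0.86 and iWAT minus eWAT 1.17, and without iBAT517 iBAT minus iWAT was 0.41 and iBAT minus eWAT 0.59. For day 4 they were 0.14, 1.10 and 0.96 in the same order (SE 1.03 to 1.4). edgeR called 0 of 11041 genes in each of these 6 comparisons of changes (0.0%; 445 to 1153 at an unadjusted p under 0.05; 11 to 92 called by DESeq2, 0 to 2 by limma voom).

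The mean of the 3 depots' changes in 1 fit of all libraries was a comparison chosen after the values of these genes were seen. The mean day 2 change of Dio2 was 3.52 (SE 0.50, 95% interval 2.49 to 4.55), a fitted 11.4-fold, with an adjusted p of 0.00164. It ranked 1 of 11041 genes both by p and by size of rise, and 30 genes passed (0.272%). It stayed past the threshold in 20 of 20 fits that left out 1 library (3.18 to 4.05, adjusted p 3.52e-05 to 0.0111) and in 6 of 6 other settings. The eWAT part of this mean rests on few reads, 6 in all at day 0 and 59 at day 2. Dio2 did not reach the filter on low counts in the fit of eWAT alone. The mean day 4 change was 1.96 (SE 0.52, 95% interval 0.90 to 3.02, adjusted p = 0.128), where 3 genes passed (0.0272%), and without iWAT517 it was 2.49 (adjusted p = 0.0335). Label numbers recur across depots within a day, and if depots of 1 number came from 1 mouse, these libraries are not independent. The p-values of this mean are then too small where libraries of 1 mouse deviate together.

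**Figure D3:**
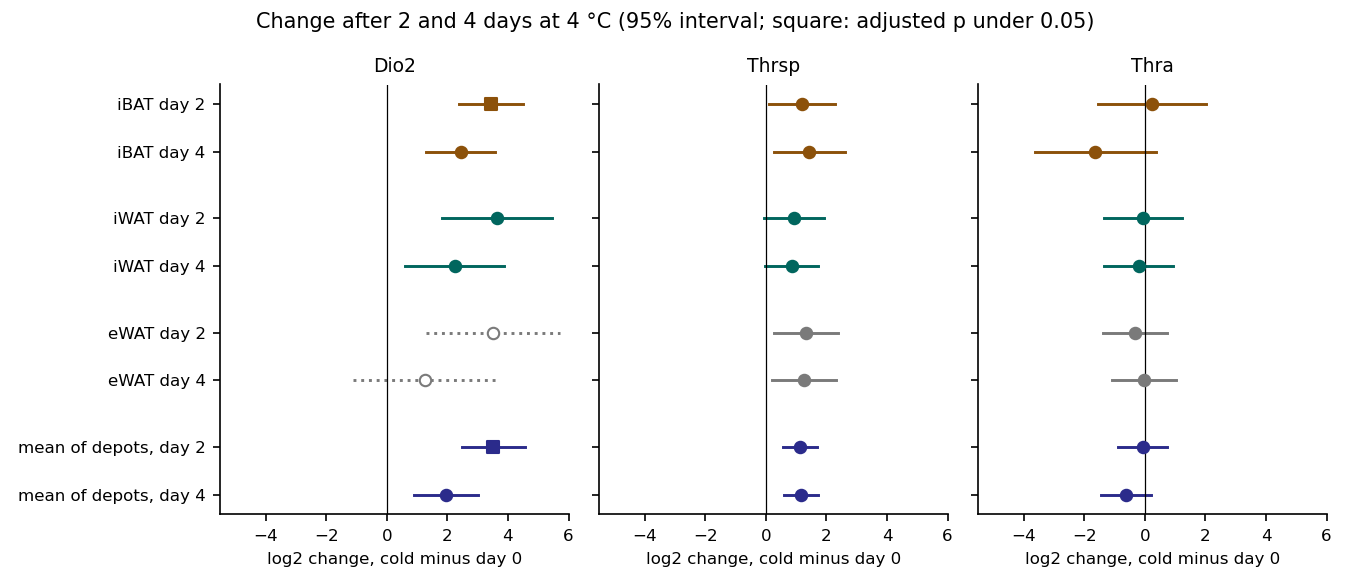
Log2 change from day 0 of Dio2, Thrsp and Thra in each depot and in the mean of the depots; lines are 95% intervals, squares have an adjusted p under 0.05, and hollow points with dotted lines are Dio2 in eWAT, taken from the fit of all 31 libraries. Squares appear for Dio2 in iBAT at day 2 (3.44) and for its mean of the depots at day 2 (3.52).

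Before the cold, the Dio2 level of iBAT exceeded that of both white depots. At day 0 the log2 difference was 3.15 for iBAT minus iWAT (SE 0.76, adjusted p = 0.0053), 6.43 for iBAT minus eWAT (SE 1.06, adjusted p = 0.000201) and 3.28 for iWAT minus eWAT (SE 1.05, adjusted p = 0.0374). In these comparisons 17.9%, 10.3% and 7.82% of 11041 genes passed, so a call between depots is common. At day 4 the differences were 3.28 (SE 0.70, adjusted p = 0.00172), 7.53 (SE 0.91, adjusted p = 3.29e-05) and 4.24 (SE 0.84, adjusted p = 0.00294) in the same order, beside 17.6%, 18.1% and 9.94% of genes. The 3 differences of day 4 and that between iBAT and eWAT at day 0 stayed past the threshold in every fit that left out 1 library. The eWAT side of the differences from eWAT rests on 6 reads in all at day 0 and 14 at day 4. Dio2 did not reach the filter on low counts in eWAT alone, and it passed that of this fit through the other depots.

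The day 0 difference between iWAT and eWAT rests on few reads. It was 1.68 (adjusted p = 0.348) without iWAT517 and missed the threshold without eWAT516, eWAT517 or eWAT518 in turn (3.22 to 3.36, adjusted p 0.0928 to 0.146), and limma voom gave 2.41 (adjusted p = 0.222). The day 0 difference between iBAT and iWAT was 2.42 without iBAT517 (adjusted p = 0.0514) and 4.75 without iWAT517 (adjusted p = 0.000277). By mean level, the 9 groups ran from iBAT at day 2 through iBAT at day 4, iWAT at day 2, iBAT at day 0, iWAT at day 4, eWAT at day 2, iWAT at day 0 and eWAT at day 4 to eWAT at day 0. Between neighbours in this order, ranges of libraries overlapped at every step except from iBAT at day 4 (133.1 CPM or more) to iWAT at day 2 (82.3 CPM or less). Inguinal fat after 2 days of cold thus held Dio2 at 27.2 to 82.3 CPM, a range that overlaps the 16.7 to 72.9 CPM of brown fat at day 0.

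**Figure D4:**
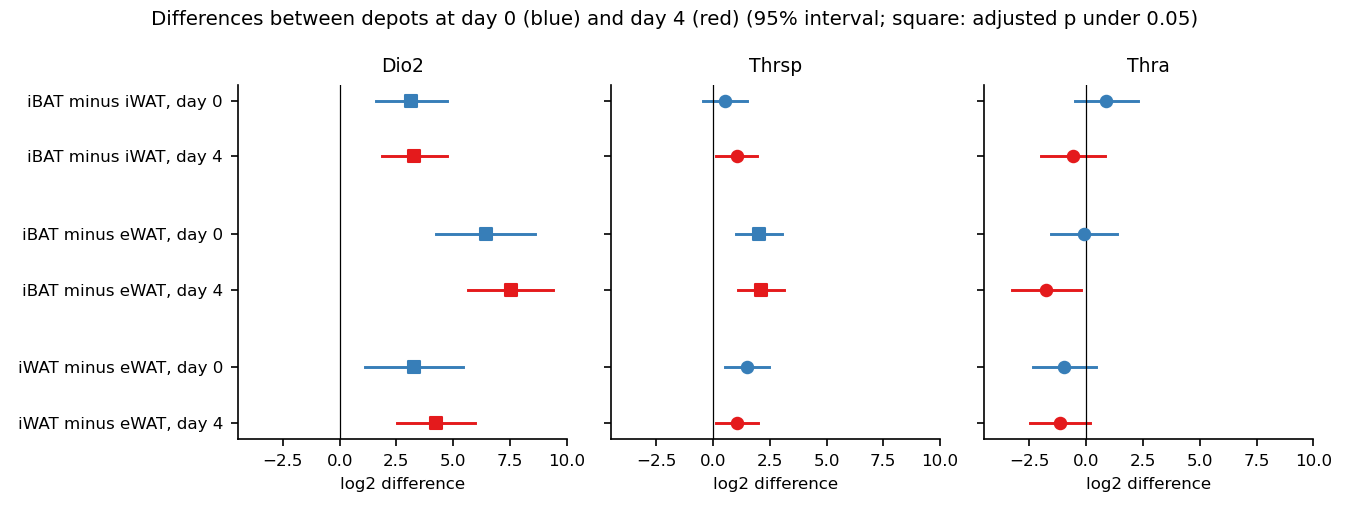
Log2 difference between depots of Dio2, Thrsp and Thra at day 0 (blue) and day 4 (red); lines are 95% intervals and squares have an adjusted p under 0.05. All 6 Dio2 differences are squares, Thrsp has squares for iBAT minus eWAT (2.03 at day 0 and 2.10 at day 4), and Thra has none.

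Dio2 was also set beside Ucp1 (NM_009463) within each library, with both counts divided by transcript length. In iBAT there were 0.494, 4.01 and 1.17 Dio2 transcripts per 1000 Ucp1 transcripts at day 0, then 4.54, 3.91, 7.99 and 13.0 at day 2, and 2.19, 1.51 and 2.99 at day 4. At day 2, 3 of 4 values lay above the day 0 range, and the day 4 values lay inside it. In iWAT the values were 1.71, 7.42, 4.57 and 10.9 at day 0, 2.71, 3.05 and 2.22 at day 2, and 0.729, 2.39, 4.04, 2.02 and 2.25 at day 4, so no cold iWAT library lay above the day 0 range. These ratios were given as a description, with no test. In eWAT Ucp1 was at 0.485 to 43.5 CPM, and the ratio rests on a handful of reads.

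Thra (NM_178060) lies on chromosome 11 at 98740776 to 98769006 on the plus strand, and its counted transcript has 9 exons and 2246 bases. It encodes the receptor form that is widespread in adult tissues, and 1 of its splice forms does not bind hormone; the tables hold 1 Thra row, with 1108 counts in all. In iBAT it had 13.0, 14.8 and 14.8 CPM at day 0, then 16.9, 10.4, 12.1 and 23.8 CPM at day 2, and 0, 4.28 and 9.33 CPM at day 4. The day 2 libraries overlapped day 0, and all 3 day 4 libraries lay below every day 0 library. The 0 is in iBAT548, where a missing value is not shown to be a true 0.

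The log2 change of Thra in iBAT was 0.24 at day 2 (SE 0.82, adjusted p = 0.928) and -1.63 at day 4 (SE 0.91, 95% interval -3.62 to 0.35, adjusted p = 0.782). Without iBAT548 the day 4 value was -1.01, and the day 2 value changed sign without iBAT539 (-0.08), without both it and iBAT548 (-0.08) and under library size alone (-0.03). No setting called either. Thra thus showed no detectable change in iBAT at a depth where its libraries held at most 50 reads.

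In iWAT, Thra had 4.78, 14.3, 5.93 and 5.6 CPM at day 0, then 2.33, 13.5 and 6.8 CPM at day 2, and 10.6, 8.36, 3.88, 5.29 and 5.06 CPM at day 4. In eWAT it had 12.2, 14.7 and 18.3 CPM at day 0, then 14.6, 10.3 and 10.8 CPM at day 2, and 14.0, 7.76 and 23.4 CPM at day 4. In both depots the groups overlapped at each time. The log2 changes were -0.06 (95% interval -1.34 to 1.22) and -0.20 (-1.33 to 0.94) in iWAT at days 2 and 4, and -0.33 (-1.38 to 0.73) and -0.02 (-1.07 to 1.03) in eWAT, with adjusted p of 0.958 or more. In iWAT both values changed sign without iWAT517 (0.40 at day 2 and 0.28 at day 4).

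Between depots Thra did not pass at day 0 (iBAT minus iWAT 0.88, iBAT minus eWAT -0.08 and iWAT minus eWAT -0.96) or at day 4 (-0.60, -1.76 and -1.16 in the same order, adjusted p of 0.106 or more). The day 4 difference between iBAT and eWAT was called by limma voom (-3.02, adjusted p = 0.0132), DESeq2 (-1.81, adjusted p = 0.036), library size alone (-2.23, adjusted p = 0.0367) and without iBAT555 (-2.93, adjusted p = 0.0353). It was -1.06 without iBAT548, the library at 0 (adjusted p = 0.305), and -1.30 without eWAT553 (adjusted p = 0.303), and the median of all genes in that comparison was itself -0.41. By mean level Thra ran from 15.8 ± 5.99 CPM in iBAT at day 2 (SD, n = 4) down to 4.54 ± 4.67 CPM in iBAT at day 4 (n = 3), and every pair of neighbours in the order of the 9 groups overlapped. The last place rests on iBAT548: the other 2 libraries of its group averaged 6.81 CPM, above the 6.64 CPM of iWAT at day 4.

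Nr1d1 (NM_145434), which encodes the circadian repressor REV-ERB alpha, lies on the opposite strand at 98767932 to 98775377. The annotated spans of Thra and Nr1d1 share 1075 bases (chromosome 11, 98767932 to 98769006), but the exons of the 2 counted transcripts share 0 bases. Since strand use is not given in the sources used here, reads in that stretch from other Thra transcripts could be counted with Nr1d1. Nr1d1 had 65.5, 181.1 and 167.1 CPM in iBAT at day 4, against 272.9, 260.8 and 278.5 CPM at day 0, which do not overlap (log2 change -0.91, adjusted p = 0.743).

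Thrb (NM_001113417), the receptor that predominates in liver, lies on chromosome 14 at 17659225 to 18040097 on the plus strand, and its counted transcript has 10 exons and 4532 bases. Its row was close to empty: 13 reads in all, in 11 of 31 libraries, out of 99.8 M. iBAT had 1 read, in iBAT555 at day 4, and 0 in all 7 libraries of days 0 and 2. iWAT had 8 reads in 6 libraries and eWAT had 4 reads in 4 libraries, and no library had more than 2. A group total of 0 allows up to 0.293 CPM in iBAT at day 0 and 0.339 CPM at day 2 (3 counts over the group's raw total, without TMM). The day 2 limit takes the missing value of iBAT539 as a true 0, which is not shown. Any change of Thrb with cold was thus not detectable in these counts. A second Thrb row (NM_009380) held 1 read.

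Of the reads on Thra and Thrb together, Thrb took 1 of 261 in iBAT (0.383%, exact 95% interval 0.0097 to 2.12), 8 of 324 in iWAT (2.47%, 1.07 to 4.81) and 4 of 536 in eWAT (0.746%, 0.204 to 1.90). Over all libraries it took 13 of 1121 (1.16%, 0.619 to 1.98), and per transcript length Thra was 172-fold higher. These intervals cover counting error only. A low row is a statement on the counted accession. The rows of Pparg and Dcn, abundant genes of fat cells and fibroblasts, held 1 and 2 reads in all, and those of Me1, Rxrg and Ncoa2 held 3, 3 and 2. Whether reads of Thrb were lost in the same way at the counting step was not tested, so its 13 reads and the 172-fold ratio do not show how much Thrb RNA the tissues held.

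Thrsp (NM_009381), a small nuclear protein that promotes lipogenesis in liver and fat, lies on chromosome 7 at 97412933 to 97417550 on the minus strand and has 2 exons and a counted transcript of 1277 bases. It was the most abundant of the 4 by far, at 677 to 7132 CPM per kilobase by group, against 0.0753 to 72.6 for Dio2, 2.02 to 7.03 for Thra and at most 0.0597 for Thrb. In iBAT it had 3782, 3675 and 3157 CPM at day 0, then 3590, 8282, 15440 and 3669 CPM at day 2, and 5341, 10190 and 11790 CPM at day 4. The day 2 libraries fell into a pair at the day 0 level (iBAT532 and iBAT539) and a pair above it (iBAT534 and iBAT535). All 3 day 4 libraries lay above day 0.

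In iWAT, Thrsp had 2353, 1562, 3008 and 2866 CPM at day 0, then 7080, 3976 and 3191 CPM at day 2, and 4479, 5501, 3311, 6219 and 2515 CPM at day 4. All 3 day 2 libraries and 4 of 5 day 4 libraries lay above every day 0 library. In eWAT it had 488.7, 950.5 and 1154 CPM at day 0, then 1781, 2463 and 2266 CPM at day 2, and 2867, 1288 and 2191 CPM at day 4. Here no cold library overlapped day 0 at either time.

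No change of Thrsp within a depot passed the threshold. All 6 changes were positive, and the share of all genes for which this holds is not given here. The changes of days 2 and 4 share the day 0 libraries of their depot, so they are not independent. They were 1.19 and 1.44 in iBAT at days 2 and 4 (SE 0.50 and 0.54, adjusted p = 0.378 and 0.616), 0.93 and 0.85 in iWAT (SE 0.46 and 0.41, adjusted p = 0.487 and 0.627) and 1.33 and 1.27 in eWAT (SE 0.47 each, adjusted p = 1.0 at both). The mean of the depots was 1.14 at day 2 (SE 0.27, 95% interval 0.58 to 1.70, adjusted p = 0.0685) and 1.17 at day 4 (SE 0.27, 95% interval 0.61 to 1.72, adjusted p = 0.0863), where Thrsp ranked 54 and 29 of 11041 genes by p. RLE size factors, DESeq2 and the library score moved the day 2 mean past the threshold (1.10 to 1.13), as DESeq2 and the score did for day 4 (1.15 and 1.17), and the remaining settings did not. Leaving out iBAT532 at day 2 (adjusted p = 0.0472) or iWAT555 at day 4 (adjusted p = 0.0392) also moved it past. The 6 differences between depots in the change ran from -0.44 to 0.52 and none passed (adjusted p of 0.919 or more).

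Between depots, Thrsp was higher in iBAT than in eWAT by 2.03 at day 0 (SE 0.50, 95% interval 1.01 to 3.05, adjusted p = 0.0114) and by 2.10 at day 4 (SE 0.50, 95% interval 1.09 to 3.12, adjusted p = 0.00597). The day 0 value was 1.75 without eWAT516, which holds the lowest Thrsp of all libraries, with an adjusted p of 0.0781. In each eWAT group the library with the highest epididymis and testis markers had the lowest Thrsp: eWAT516 at day 0 (15870 CPM, against 100.6 and 1482 CPM in the others), eWAT532 at day 2 (31660 CPM, against 2119 and 506.6 CPM) and eWAT551 at day 4 (11100 CPM, against 1662 and 956.8 CPM). The part of these markers in the Thrsp values was not tested. iBAT minus iWAT was 0.53 at day 0 (adjusted p = 0.441) and 1.05 at day 4 (adjusted p = 0.0926). iWAT minus eWAT was 1.5 at day 0 (adjusted p = 0.0552) and 1.06 at day 4 (adjusted p = 0.155), and the first of these passed under RLE, library size alone, limma voom, DESeq2 and the library score (1.42 to 1.55). By mean level the groups ran from 9107 ± 3359 CPM in iBAT at day 4 (SD, n = 3) to 865 ± 341 CPM in eWAT at day 0 (n = 3), and neighbours overlapped except iBAT and iWAT at day 0 and eWAT at days 4 and 0.

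The wider pathway was read through 5 lists of 41 genes, of which 33 have a row and 22, 24 and 25 were tested in iBAT, iWAT and eWAT. edgeR called 0 of these genes higher and 0 lower in each of the 6 comparisons with day 0, beside 0.157% of all genes in iBAT at day 2 and 0.0% in the other 5, so the count says nothing particular about these lists. DESeq2 called Ucp1 in iWAT at day 2 (4.83, adjusted p = 1.66e-05) and day 4 (3.96, adjusted p = 0.000168) and no other. The genes named here beyond the 4 members, Nr1d1, and the member of each list with the highest level per length were chosen after their values were seen.

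Among the thyroid hormone responsive genes, 7 of 10 were tested in each depot. In iBAT, 7 of 7 had a positive log2 change at day 2 (median 0.69, against 0.01 for all genes) and 6 of 7 at day 4 (median 0.79, against -0.04). In iWAT, 4 and 5 of 7 were positive (medians 0.16 and 0.32, against -0.08 and -0.01), and in eWAT 4 and 7 of 7 (medians 0.07 and 0.59, against 0.01 and -0.01). Ucp1, also in the brown marker list, led this list at 4462 CPM per kilobase. It had a log2 change of 1.61 in iBAT at day 2 (SE 0.54, adjusted p = 0.277) and 1.91 at day 4 (SE 0.57, adjusted p = 0.519), and of 4.82 (SE 0.85, adjusted p = 0.247) and 3.95 (SE 0.74, adjusted p = 0.46) in iWAT. Fasn, fatty acid synthase, had 0.94 and 1.51 in iBAT (SE 0.40 and 0.43, adjusted p = 0.382 and 0.44), and Klf9, a direct target of the receptors in brain and other tissues, had 0.01 and 0.33 (SE 0.39 and 0.42).

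Of the transporters, 3 of 6 were tested in iBAT and 4 in the white depots, with medians of -0.31 and -0.12 in iBAT, -0.09 and 0.03 in iWAT and 0.14 and 0.94 in eWAT at days 2 and 4. Slc7a8, an amino acid transporter that also carries thyroid hormone, had the highest level per length of them. It averaged 10.4 ± 8.79 CPM in iWAT at day 4 (SD, n = 5) and 117 ± 58.5 CPM in eWAT (n = 3). The log2 difference was -3.44 (SE 0.74, adjusted p = 0.00302), beside 9.94% of all genes called and 3 higher and 2 lower of 25 list genes. It stayed past the threshold in 8 of 8 fits with 1 library left out. Slc7a5, a close relative of Slc7a8, was lower in iBAT than in iWAT at day 0 (1.47 ± 0.56 CPM, n = 3, against 21 ± 5.31 CPM, n = 4). In iBAT it lay at 0.908 to 2.04 CPM at day 0 and at 0 to 2.45 CPM at day 4. It did not reach the filter on low counts in iBAT alone, and it passed that of the fit of all 31 libraries through the white depots. The log2 difference of iBAT minus iWAT was -3.83 at day 0 (SE 1.08, adjusted p = 0.0197) and -3.89 at day 4 (SE 1.18, adjusted p = 0.0239). In these comparisons 17.9% and 17.6% of all genes were called, with 1 higher and 1 lower of 25 list genes in each. The Slc7a5 differences stayed past the threshold in 4 of 7 and 6 of 8 fits with 1 library left out. Their highest adjusted p was 0.0864 without iBAT517 and 0.118 without iBAT548. The lymphocyte markers (7 of 8 with a row) summed to 7.11 to 21.18 CPM in iBAT and 1513 to 2610 CPM in iWAT at day 0, and to 0 to 9.33 CPM in iBAT and 773.2 to 2620 CPM in iWAT at day 4, and their part in this difference was not tested. The Slc7a5 value of 449 CPM in eWAT551, against 10.8 and 14.0 CPM in the other day 4 eWAT libraries, moves its differences from eWAT at day 4. With eWAT551, iBAT minus eWAT was -7.09 (adjusted p = 0.000721), beside 18.1% of all genes called, and without it -3.41 (adjusted p = 0.0293). With eWAT551, iWAT minus eWAT was -3.20 (adjusted p = 0.0166), and without it 0.47 (adjusted p = 0.844). eWAT551 also had epididymis and testis markers summing to 11100 CPM, against 957 and 1662 CPM in the other day 4 libraries of eWAT, and their part in this was not tested.

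The other deiodinases stayed low. Dio1, the type I enzyme of liver and kidney, was at 0 in all 7 cold libraries of iBAT, and at most 11.2 CPM in any eWAT library. In iBAT at day 0 it was at 0 to 0.407 CPM with a median of 0, so no change with cold is shown. The cold libraries include iBAT539 and iBAT548, where a missing value is not shown to be a true 0. Dio1 was tested in eWAT, where it had log2 changes of 0.47 and -1.0 at days 2 and 4. Dio3, which inactivates the hormone, averaged at most 0.611 CPM in a group, and Crym, which binds T3 in the cytosol, at most 1.19 CPM. Neither passed the filter.

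Of 7 genes for synthesis and turnover of the Dio2 protein, 3 were tested in each depot. Ube2g2, which helps to mark that protein for degradation, had the highest level per length. It averaged 100.3 ± 31.6 CPM at day 0 (SD, n = 3), 70.3 ± 21.5 CPM at day 2 (n = 4) and 58.5 ± 45.4 CPM at day 4 (n = 3) in iBAT. Its day 4 libraries lay at 6.32, 79.8 and 89.35 CPM, against 63.85 to 120.3 CPM at day 0. The lowest of them pulls the day 4 mean down, and its part in the list's median was not tested. The list's medians were -0.27 and -0.52 in iBAT, -0.01 and 0.15 in iWAT and -0.01 and 0.18 in eWAT. Of 15 receptor partners and coregulators, 9 were tested in iBAT and 10 in each white depot, and all medians lay between -0.07 and 0.28. Hdac3, the corepressor-bound deacetylase, led that list and averaged 131 ± 40.8 CPM at day 0 (n = 3), 95.9 ± 55.1 CPM at day 2 (n = 4) and 120 ± 28.4 CPM at day 4 (n = 3) in iBAT. Its day 2 libraries ran from 17.66 to 138.0 CPM with a median of 113.9 CPM, so the lowest of them pulls that mean down.

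**Figure D5:**
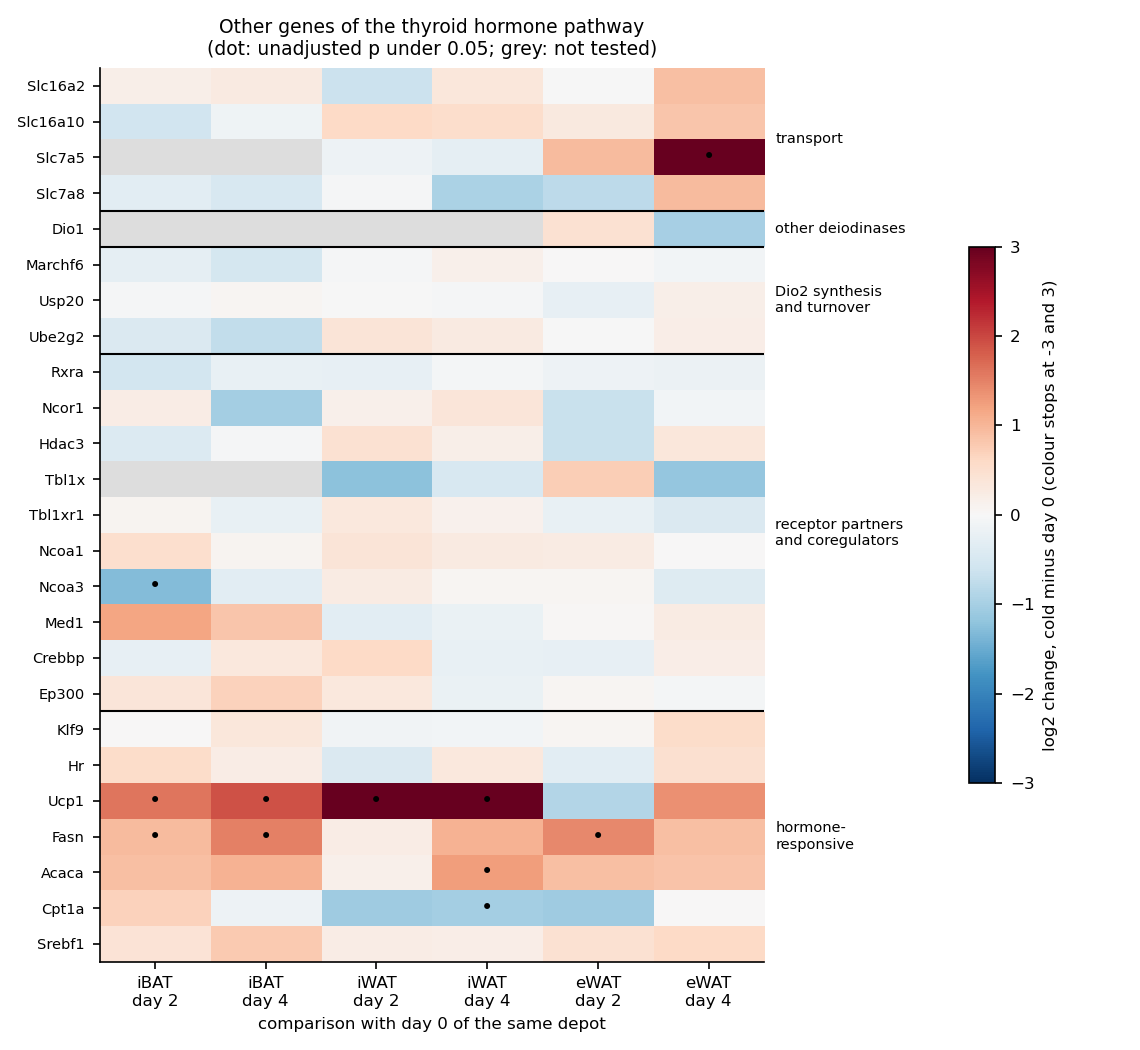
Log2 change from day 0 of each tested gene of the 5 pathway lists (rows) in each depot and day (columns), as colour that stops at -3 and 3; dots mark an unadjusted p under 0.05 and grey marks untested genes. Dots gather on Ucp1 and Fasn, and the dot of Slc7a5 in eWAT at day 4 (3.17) includes the library eWAT551, at 449 CPM.

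The genes whose group means of log2 CPM were most like each member over the 9 groups were found among 9770 genes with at least 5 CPM in a group. For Dio2 they were Traf4 (r = 0.99), Pex14 (0.99), Coa7 (0.986), Ankrd9 (0.983) and Gpd1 (0.981), while its r was 0.922 with Thrsp, 0.909 with Ucp1 and -0.377 with Thra. For Thrsp they were Fasn (0.975), Ppcs (0.967), Pdhb (0.965), Adcy10 (0.96) and Tkt (0.956). For Thra they were Prkar2a (0.976), Erlin2 (0.966), Nxpe4 (0.939), Spry2 (0.927) and Tmem30a (0.926). All 5 of these had their lowest iBAT day 4 value in iBAT548, at 0 for Prkar2a, Erlin2 and Nxpe4. Without iBAT548, where missing values are not shown to be true 0s, the r with Thra was 0.957, 0.728, 0.861, 0.839 and 0.68 in the same order, while the 5 values for Dio2 stayed at 0.964 or more and those for Thrsp at 0.898 or more. The 9 groups share depots and libraries, so these values describe likeness only, and Thrb was too low to be ranked. The 5 genes most like Dio2 were picked on means that include iBAT at days 0 and 2, so a rise between these is partly built in. In that comparison 13 of 8270 genes passed (0.157%), and 0 to 3 did with 1 library left out. Of the 5, Ankrd9 passed in iBAT at day 2 (2.53, adjusted p = 0.0389), with 468 ± 171 CPM at day 2 (SD, n = 4) and 85.7 ± 15.7 CPM at day 0 (n = 3). Gpd1, the cytosolic enzyme that makes glycerol 3-phosphate for fat synthesis, averaged 6895 ± 2538 CPM at day 2 (n = 4) and 1936 ± 97.5 CPM at day 0 (n = 3) there (1.90, adjusted p = 0.0932).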

How the data were processed

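The authors deposited 1 table of raw counts per depot, with 1 row per RefSeq transcript; per the submitters' processing notes, cutadapt and BWA were used with build mm10. Tool versions, the counting step, the annotation release, and whether strand was used or duplicates were removed are not given in the sources used here. Missing values, which stand where a 0 would be, were taken as 0. Of 17334 accessions, 17030 took their symbol from RefSeq (GRCm38.p6), 105 from GENCODE M21 and 199 had none. No column was left unmapped.

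Counts were fitted with edgeR 4.0.16 in R 4.3.3: TMM scaling, filterByExpr (minimum count 10, total 15), robust quasi-likelihood tests, two-sided, and Benjamini-Hochberg adjustment over all genes at 0.05. Days were compared within a depot (8270, 9574 and 10043 genes in iBAT, iWAT and eWAT), and depots in 1 fit of 31 libraries (11041 genes). Alternatives were RLE factors, library size alone, no filter, limma 3.58.1 voom, DESeq2 1.42.0, leaving out libraries, a library score along a within-group axis shared by the depots, and the label number as a block. The edgeR fits within a depot were tested on simulated data, and the outcome is not reported here. PCR duplicates carry no molecular identifiers, and chi-square per degree of freedom between replicates ran from 10.4 to 168.9, so counting intervals understate the spread. The common biological coefficient of variation was 0.54 to 0.59.

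The members and lists were chosen with earlier results of these data known. Named genes are the 4 members, Nr1d1, pathway-list genes past 0.05 against day 0, the list member with the highest level per length, and for each member the 5 genes with the highest correlation of group means of log2 CPM (prior count 2). Any other gene is named because of its values. Listed genes without a row in the tables used were not analysed here.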

Additional observations from a re-analysis of the deposited data

Results flagged for a closer look

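In the day 0 group of iWAT, 1 library stood far from the other 3 in both Dio2 and Thra. Dio2 was at 13.1 CPM in iWAT517, against 1.19 to 1.77 CPM in the others, and the gap to the next library was 0.951 of the group's whole range. Thra was at 14.3 CPM in the same library, against 4.78 to 5.93 CPM, with a gap of 0.879 of the range. Both flags come from 1 library of 1 group, among 11 sets of values (a gene in 1 of the 3 groups with 4 or more libraries), where chance gives about 1 in 20. The same library had the highest sums of skeletal muscle markers (2607 CPM) and brown adipocyte markers (1389 CPM) of its group. It was also highest in nerve and Schwann (596.4 CPM), general adipocyte (20910 CPM) and macrophage markers (122.6 CPM). It was lowest in white adipocyte (99.31 CPM), endothelial (159.0 CPM) and epididymis and testis markers (7.77 CPM). Thrsp there was the lowest of the group (1562 CPM). The brown adipocyte markers were nearly as high in iWAT516 (1306 CPM), where Dio2 was at 1.4 CPM and Thra at 4.78 CPM. The part of these markers in the values of Dio2 and Thra was not tested. iBAT517, which has the same label number, held the highest Dio2 of iBAT at day 0, at 72.9 CPM against 16.7 and 32.6 CPM. In eWAT517 Dio2 was at 2 counts, as in the rest of its group.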

How the results depend on the processing

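Of 1048 alternative values for 58 results on Dio2, Thra and Thrsp, 951 kept their direction and their side of the threshold, 57 changed sign (0 of them past the threshold), 21 newly passed and 19 no longer passed; the cause was not tested. Values are log2, and "change" is against day 0.

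Library size alone gave 3.18 for Dio2 in iBAT at day 2 (not called), -0.026 for Thra there (sign changed), and called 1.42 for Thrsp iWAT minus eWAT at day 0 and -2.23 for Thra iBAT minus eWAT at day 4. One fit of all libraries gave 3.37 for Dio2 in iBAT at day 2 (not called), and leaving out iBAT539 and iBAT548 gave -0.082 for Thra there. RLE factors called Thrsp iWAT minus eWAT at day 0 (1.54) and its mean of the depots at day 2 (1.10). No filter gave 3.28 for Dio2 iWAT minus eWAT at day 0 (not called). DESeq2 called Dio2 at day 4 in iBAT (2.45), at day 2 in iWAT (3.70) and in the mean of the depots at day 4 (1.96). It also called Thrsp iWAT minus eWAT at day 0 (1.54), iBAT minus iWAT at day 4 (1.09) and its means at days 2 and 4 (1.10 and 1.15), and Thra iBAT minus eWAT at day 4 (-1.81). limma voom did not call Dio2 iWAT minus eWAT at day 0 (2.41), called Thrsp there (1.55) and Thra iBAT minus eWAT at day 4 (-3.02), and changed the sign of 3 differences between changes: Thrsp iBAT minus iWAT at day 2 (-0.059), Dio2 iBAT minus eWAT at day 2 (0.58) and Thrsp iBAT minus eWAT at day 4 (-0.011). The library score called Thrsp iWAT minus eWAT at day 0 (1.49) and its means (1.13 and 1.17), and changed the sign of Thra in iWAT at day 2 (0.069), Thra in eWAT at day 4 (0.023) and the Dio2 difference iBAT minus eWAT in the day 2 change (0.024).

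The replicate block on the label number could be fitted across depots only, since numbers never recur between days of 1 depot. Same-numbered libraries of different depots correlated at -0.552 to 0.421 in their deviations, so the block was not used as the pairing; this does not show that the mice were different. The block gave 2.97 for Dio2 iWAT minus eWAT at day 0 (not called), and -1.01 (Thrsp, iBAT minus iWAT, day 2), 0.55 (Dio2, iBAT minus eWAT, day 2) and -0.14 (Thrsp, iBAT minus eWAT, day 4) for differences between changes; with the score these were 2.98, -0.92, 0.38 and -0.11, and Thra iWAT minus eWAT in the day 2 change was -0.56. The block changed no other call of a member. It took the genes called in iWAT minus eWAT at day 4 to 684, against 1097 without it, and with the score the block called 10 genes in place of 0 in the day 4 difference between changes of these depots.

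With 1 library left out, ranges that crossed 0 or the threshold were, for changes, 3.07 to 4.17 (Dio2, iBAT day 2, not called in 7 of 7), -0.079 to 0.42 (Thra, iBAT day 2), -0.74 to 0.40 and -0.43 to 0.28 (Thra, iWAT days 2 and 4) and -0.49 to 0.29 (Thra, eWAT day 4). At day 0 they were 2.42 to 4.75 (Dio2, iBAT minus iWAT), -0.21 to 0.084 (Thra, iBAT minus eWAT), 1.75 to 2.30 (Thrsp, iBAT minus eWAT) and 1.68 to 3.59 (Dio2, iWAT minus eWAT). At day 4 they were -1.74 to 0.12 (Thra, iBAT minus iWAT) and -2.93 to -1.06 (Thra, iBAT minus eWAT). For the day 2 differences between changes they were -1.91 to 0.41 (Dio2), -0.34 to 0.88 (Thra) and -0.38 to 0.64 (Thrsp) for iBAT minus iWAT, -0.53 to 0.86 (Dio2) and -0.77 to 0.087 (Thrsp) for iBAT minus eWAT, and -0.21 to 1.77 (Dio2) and -0.40 to 0.82 (Thra) for iWAT minus eWAT. For day 4 they were -1.46 to 0.86 (Dio2, iBAT minus iWAT), -0.20 to 0.40 (Thrsp, iBAT minus eWAT) and -0.51 to 0.31 (Thra, iWAT minus eWAT). For the means of the depots they were -0.32 to 0.094 (Thra, day 2), 0.95 to 1.23 and 1.07 to 1.26 (Thrsp, days 2 and 4) and 1.76 to 2.49 (Dio2, day 4).

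The 13 genes called in iBAT at day 2 became 1 to 306 under other settings. Elsewhere against day 0, 0 became up to 83 in iBAT at day 4, 111 and 43 in iWAT at days 2 and 4, and 0 and 4 in eWAT, each highest with DESeq2, and 4 in iWAT at day 4 with 1 library left out. The 1976, 1135 and 863 calls between depots at day 0 ranged over 1174 to 2776, 586 to 1666 and 390 to 1327, and the 1940, 1993 and 1097 at day 4 over 1230 to 2768, 1161 to 2801 and 468 to 1518. The means of the depots called 16 to 243 genes at day 2 in place of 30 and 1 to 167 at day 4 in place of 3, and the 6 differences between changes 0 to 92 in place of 0. Summing all rows of a symbol concerned only Thrb, which was not tested, and gave no value. Few reads limit Thrb in all depots and Dio2 in eWAT, at most 2 and 37 per library, and for Thrb the cause was not tested; fits with 1 library left out of 3 rest on a spread shared with the other groups.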
